A study of Mus musculus with 5 samples.

Results

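The Fc gamma receptor genes of the mouse are Fcgr1, Fcgr3 and Fcgr4, which encode the binding chains of the activating receptors for immunoglobulin G, Fcgr2b, which encodes the inhibitory receptor, and Fcer1g, which encodes the common gamma chain that the activating chains need for signalling. All probe sets of the array that the platform annotation assigns to exactly 1 of these 5 symbols were taken, which gave 10 of the 45101 probe sets in the table. Fcgr2b had 5 of them, Fcgr1 had 2, and Fcgr3, Fcgr4 and Fcer1g had 1 each. They were measured in total RNA of whole blood from adult female mice of 2 first-generation crosses, 1 Affymetrix array per sample. The DBAxFVB F1 group, 3 arrays, had a DBA/2J and an FVB/NJ parent, and the AKRxFVB F1 group, 2 arrays, had an AKR/J and an FVB/NJ parent. DBA/2J, AKR/J and FVB/NJ are inbred laboratory strains, and every animal therefore carried 1 FVB/NJ copy of each autosomal gene. No treatment or engineered allele is given for either group, and the blood was drawn by cardiac puncture under Avertin anaesthesia. The comparison addresses basal differences in blood expression between the 2 genotypes.

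An activating Fc gamma receptor bound to an antibody-coated particle is phosphorylated on the tyrosine motifs (ITAMs) of the gamma chain, which recruit the kinase Syk and lead to phagocytosis, oxidant release or cytokine production. Fcgr2b carries an inhibitory motif (ITIM) in its own tail and recruits the lipid phosphatase Inpp5d, which limits the activating signal. In mouse blood, B cells carry Fcgr2b as their Fc gamma receptor, natural killer cells carry Fcgr3, neutrophils carry Fcgr3 and Fcgr4, and monocytes carry activating and inhibitory receptors together. The gamma chain is also used by the high-affinity receptor for immunoglobulin E on basophils and mast cells and by glycoprotein VI, the collagen receptor of platelets.

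Of the 5 genes, Fcgr2b, Fcgr4, Fcgr3 and Fcer1g lie on chromosome 1 and Fcgr1 lies on chromosome 3, in the RefSeq gene table of assembly GRCm38.p6. Fcgr4 is the next protein-coding gene after Fcgr2b, Fcgr3 is the 2nd and Fcer1g the 10th. The promoters were searched for GAGGAA, the core of the site of the myeloid transcription factor PU.1, and for TTCNNNGAA, the site of interferon-activated STAT factors, on both strands of the window that runs 250 bases before to 50 after each annotated start. GAGGAA was found once each in the windows of Fcgr4, Fcgr3 and Fcgr1, in each case as its complement TTCCTC, and in 28.3% of all 32851 promoter windows of that length. TTCNNNGAA was found in the window of Fcgr1, 109 bases before the start, and in 8.30% of all windows. The windows of Fcgr2b and Fcer1g held neither string, which says only that these letters are not in them. The 80 bases around the match are printed for the 3 activating binding chains, since it is what these 3 genes share, read in the direction of transcription from RefSeq GRCm38.p6 with the match in capitals.
Fcgr4 (chr1:171018867-171018946, plus strand, match 22 bases before the start): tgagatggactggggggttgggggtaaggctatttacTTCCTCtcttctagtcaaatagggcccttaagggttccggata
Fcgr3 (chr1:171059367-171059446, minus strand, match 6 bases before the start): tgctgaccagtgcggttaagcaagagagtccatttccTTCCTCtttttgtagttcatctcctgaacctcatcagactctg
Fcgr1 (chr3:96293982-96294061, minus strand, match 55 bases before the start): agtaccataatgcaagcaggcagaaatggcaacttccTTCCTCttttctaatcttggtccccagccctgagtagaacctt
Fcgr3 has 2 annotated starts, and the match lay 15 bases before the other. Around the match, Fcgr1 and Fcgr3 shared a run of 14 bases, ttccttcctctttt, the longest among the 10 pairs of the 5 promoters. These matches are a description of the sequence, and the array values below do not bear on binding.

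None of the Fc gamma receptor probe sets passed the test between the crosses across the table. Values are log2 expression as deposited, differences are DBAxFVB F1 minus AKRxFVB F1 on that scale, and probe sets were tested with limma when their mean over the 5 arrays reached 2.51, the median of all probe sets. By that filter 6 of the 10 were tested, covering Fcgr3, Fcgr4, Fcer1g and 3 probe sets of Fcgr2b. At a limma adjusted p below 0.05, 0 of the 6 were called, as were 0 of all 22519 probe sets tested (0%). At an unadjusted p below 0.05 there were 0 of 6, against 10.4% of all probe sets, of which those higher in DBAxFVB F1 made up 3.59% of the table and those lower 6.79%. The values of the crosses overlapped in all 10 probe sets, while the groups did not overlap for 28.9% of all tested, 16.4% higher and 12.6% lower in DBAxFVB F1. The median difference of the 6 was 0.026, against 0.044 over all tested, and 2 of the 6 were lower in DBAxFVB F1, against 43.2% of all. No label states that each sample of a cross is its own animal, so the p-values reflect array-to-array spread that may be only technical, and 5 arrays limit the precision of every value. In whole blood, fewer cells of a type and less RNA per cell cannot be told apart.

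**Figure D1:**
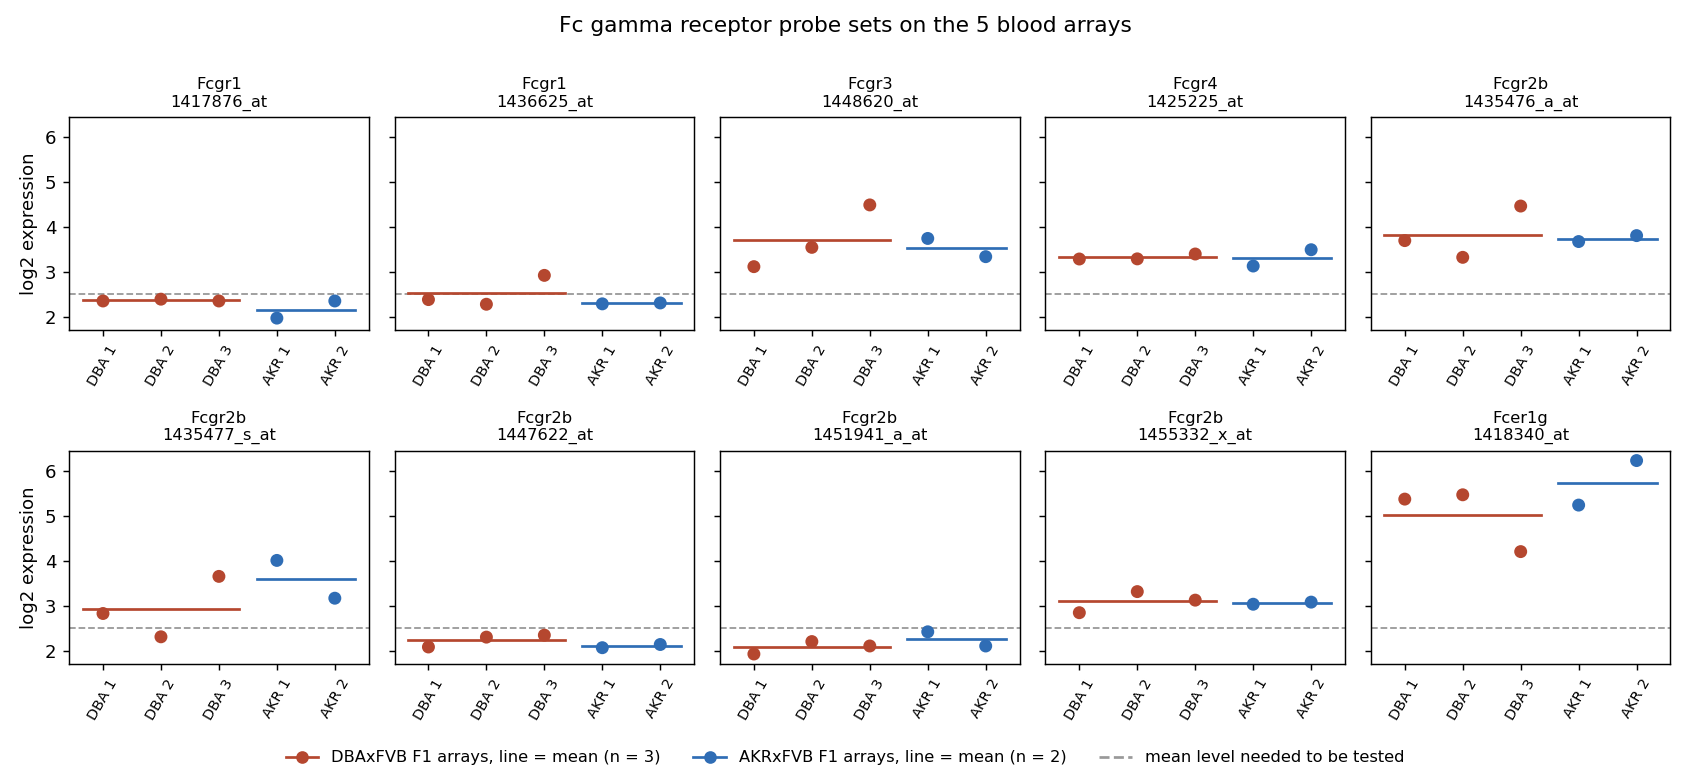
Log2 expression of the 10 Fc gamma receptor probe sets on each of the 3 DBAxFVB F1 (DBA) and 2 AKRxFVB F1 (AKR) arrays, with each group's mean as a line and the level a probe set's mean had to reach to be tested (2.51) as a dashed line. In every panel the points of the 2 crosses overlap, and DBAxFVB F1 array 3 holds the lowest Fcer1g value and the highest Fcgr3 value.

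One array stood apart from the others. On DBAxFVB F1 array 3 the 18 hybridisation control probe sets had a median of 7.99, against 10.01 to 10.12 on the other 4. The 3-prime minus 5-prime difference of Gapdh, a sign of RNA quality, was 1.33 on this array, against 0.58 to 1.04. For Actb it was 1.32, against 0.68 to 1.22, with 1.22 on AKRxFVB F1 array 1. Bright probe sets read low on DBAxFVB F1 array 3: those with a mean of 8 to 10 lay at -0.91 from their own mean over the arrays. Among blood cell markers, the erythroid enzyme gene Alas2 was at 13.54 in DBAxFVB F1 and 13.52 in AKRxFVB F1 and the platelet chemokine gene Pf4 at 9.85 and 10.44. The other erythroid markers ranged from Slc4a1, at 10.06 and 10.48, down to the globin gene Hba-a1, at 2.63 and 2.45. Of 13 erythroid markers listed, 8 had a probe set with 1 symbol, and each was read from 1 probe set. Levels of different probe sets are not comparable, so the low Hba-a1 value cannot be read as the level of globin RNA. Pf4 and Slc4a1 differed by -0.59 and -0.42 between the crosses, and by 0.069 and 0.043 without array 3. Receptor or list gene differences over 0.1 are also given without array 3 where this turned their sign or moved them by over 1.5 times. Genes given by array values alone carry no such value.

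Among the activating binding chains, Fcgr3, the low-affinity receptor of natural killer cells, neutrophils and monocytes, varied more within DBAxFVB F1 than between the crosses. It read 3.12, 3.55 and 4.49 on the DBAxFVB F1 arrays and 3.75 and 3.34 on the AKRxFVB F1 arrays. Its highest value was on DBAxFVB F1 array 3 and its lowest on array 1 of the same cross, with both AKRxFVB F1 values between them. The means were 3.72 ± 0.70 (SD, n = 3) and 3.55 ± 0.29 (SD, n = 2), a difference of 0.18 ± 0.38 (SE; limma adjusted p = 0.889). The 95% interval, from -0.70 to 1.05, holds folds of 0.616 to 2.07. Without DBAxFVB F1 array 3 the difference was -0.21.

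Fcgr4, the receptor for IgG2a and IgG2b on monocytes and neutrophils, was the most even of the 6 tested probe sets over the arrays. It read 3.29, 3.30 and 3.40 in DBAxFVB F1 and 3.14 and 3.50 in AKRxFVB F1, a range of 0.36 over all arrays. The AKRxFVB F1 arrays held both its lowest and its highest value. The difference was 0.013 ± 0.17 (SE; limma adjusted p = 0.985), with a 95% interval from -0.39 to 0.42, or folds of 0.762 to 1.34.

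Fcgr1, the high-affinity receptor of monocytes and macrophages, lay below the filter on both of its probe sets. Probe set 1417876_at read 2.36, 2.40 and 2.36 in DBAxFVB F1 and 1.98 and 2.36 in AKRxFVB F1. Probe set 1436625_at read 2.39, 2.29 and 2.93 in DBAxFVB F1 and 2.30 and 2.31 in AKRxFVB F1. Only the second passed the median of all probe sets on any array, which was DBAxFVB F1 array 3. In a fit without a filter the differences were 0.20 ± 0.15 and 0.23 ± 0.19 (SE), with limma adjusted p-values of 0.731 and 0.77, and without DBAxFVB F1 array 3 that of the second was 0.033.

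The inhibitory receptor gene Fcgr2b was represented by 5 probe sets that did not give a single pattern. The brightest, 1435476_a_at, read 3.70, 3.33 and 4.47 in DBAxFVB F1 and 3.68 and 3.81 in AKRxFVB F1, again highest on DBAxFVB F1 array 3. Its difference was 0.087 ± 0.32 (SE; limma adjusted p = 0.941), with a 95% interval from -0.66 to 0.83, and it was -0.23 without DBAxFVB F1 array 3. Probe set 1455332_x_at read 2.84, 3.31 and 3.12 in DBAxFVB F1 and 3.03 and 3.08 in AKRxFVB F1, a difference of 0.038 ± 0.18 (limma adjusted p = 0.955), and both AKRxFVB F1 values lay inside the DBAxFVB F1 range.

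Probe set 1435477_s_at had the smallest p of the 6. It read 2.82, 2.31 and 3.65 in DBAxFVB F1 and 4.004 and 3.16 in AKRxFVB F1, so AKRxFVB F1 array 1 was highest and DBAxFVB F1 array 3 lay between the AKRxFVB F1 arrays. The means were 2.93 ± 0.68 (SD, n = 3) and 3.58 ± 0.59 (SD, n = 2), and the difference was -0.66 ± 0.40 (SE; limma adjusted p = 0.611; unadjusted p = 0.139). The 95% interval ran from -1.58 to 0.27, or from a fold of 0.334 to 1.20. Leaving out AKRxFVB F1 array 1 or 2 gave -0.24 or -1.08, and leaving out DBAxFVB F1 array 2 or 3 gave -0.35 or -1.02 (limma adjusted p = 0.245 for the last).

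The other 2 Fcgr2b probe sets lay below the filter. Probe set 1447622_at read 2.08, 2.30 and 2.34 in DBAxFVB F1 and 2.06 and 2.14 in AKRxFVB F1 (difference 0.14, or 0.090 without DBAxFVB F1 array 3), and probe set 1451941_a_at read 1.92, 2.20 and 2.10 in DBAxFVB F1 and 2.42 and 2.10 in AKRxFVB F1. All 10 values were below 2.51. The 3 tested probe sets were designed from the same transcript accession, yet they moved apart between arrays: 1435477_s_at minus 1435476_a_at was -0.88, -1.02 and -0.82 in DBAxFVB F1 and 0.32 and -0.65 in AKRxFVB F1. The groups do not overlap in this quantity, which was singled out after its values were seen and was not tested. Against 1455332_x_at in place of 1435476_a_at the values were -0.018, -1.01 and 0.53 in DBAxFVB F1 and 0.97 and 0.087 in AKRxFVB F1, which overlap. In the naming of this array the suffixes _s_at and _x_at mark probes that also match other transcripts. Fcgr2b and Fcgr3 are close in their extracellular part, so signal shared between the 2 genes is an uncertainty of these values that was not tested.

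**Figure D2:**
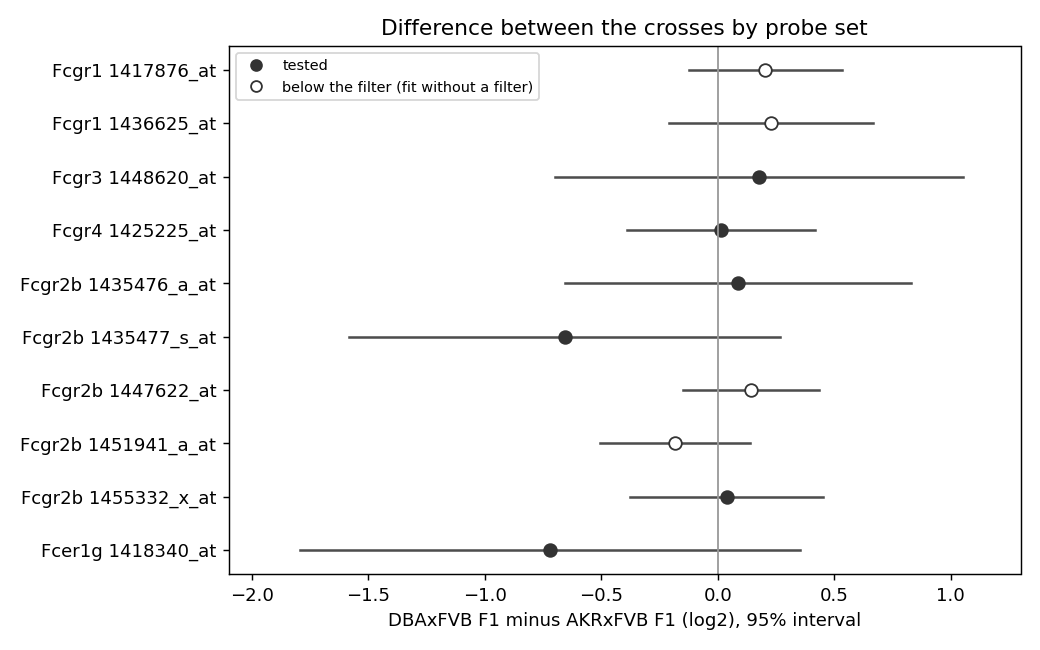
Difference between the crosses (DBAxFVB F1 minus AKRxFVB F1, log2) for each of the 10 probe sets, with its 95% interval from limma. Filled points were tested, and open points lay below the filter and come from the fit without it. Every interval spans 0, and Fcer1g and Fcgr2b probe set 1435477_s_at lie farthest from it, at -0.72 and -0.66.

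Fcer1g, the common gamma chain, gave the brightest signal of the 10 probe sets, its mean at percentile 95.5 of all probe sets, and it differed most between single arrays. It read 5.37, 5.46 and 4.20 in DBAxFVB F1 and 5.23 and 6.22 in AKRxFVB F1. The lowest value was on DBAxFVB F1 array 3 and the highest on AKRxFVB F1 array 2, while the other 3 arrays lay within 5.23 to 5.46 across both crosses. The means were 5.01 ± 0.70 (SD, n = 3) and 5.73 ± 0.70 (SD, n = 2), a difference of -0.72 ± 0.46 (SE; limma adjusted p = 0.629; unadjusted p = 0.16). The 95% interval ran from -1.79 to 0.35, or from a fold of 0.289 to 1.28. Leaving out DBAxFVB F1 array 3 gave a difference of -0.31, and leaving out AKRxFVB F1 array 2 or 1 gave -0.22 or -1.21.

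The median of the platelet marker list moved with Fcer1g over the arrays. Relative to the mean of the 5 arrays, Fcer1g lay at 0.069, 0.17 and -1.10 on the DBAxFVB F1 arrays and at -0.064 and 0.93 on the AKRxFVB F1 arrays. The median of the 11 platelet markers measured lay at 0.25, 0.42 and -1.31 in DBAxFVB F1 and at -0.37 and 0.91 in AKRxFVB F1, the same order of arrays. The root mean square difference between the 2 profiles was 0.22 over the 5 arrays. It was smaller than for any other marker list with 3 or more tested members, of which the erythroid list was next at 0.52. Among 12420 single genes, 185 lay within 0.25 of Fcer1g. Gp6, a platelet receptor gene outside this list, was highest on DBAxFVB F1 array 3, at 4.13, where Fcer1g was lowest. All 11 markers of the list were lower in DBAxFVB F1, with 0 called and 0 at an unadjusted limma p below 0.05. Their median difference was -0.54. That direction rested on single arrays: the median was 0.032 without DBAxFVB F1 array 3 and 0.20 without AKRxFVB F1 array 2. Itga2b, the platelet integrin chain, read 7.76, 7.62 and 5.99 in DBAxFVB F1 and 6.89 and 8.22 in AKRxFVB F1. Their summed linear signal ran from 1965 to 7329 in DBAxFVB F1 and from 4799 to 10390 in AKRxFVB F1, in arbitrary units, and none of the 11 lay below the filter. Probe sets of the level of Fcer1g, with a mean of 5 to 6, had a median deviation of -0.19 on DBAxFVB F1 array 3 and 0.12 on AKRxFVB F1 array 2, less than that of Fcer1g on either. The platelet markers were brighter, with a median level of 7.42. All probe sets with a mean of 6 to 8 had median deviations of 0.036, 0.11 and -0.65 in DBAxFVB F1 and 0.093 and 0.36 in AKRxFVB F1. Their median difference was -0.44, beside -0.54 for the platelet markers. The part of platelets, of array 3 or of probe brightness in the Fcer1g values was not tested.

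B cell markers were high on the array where 1435477_s_at of Fcgr2b was high. That probe set lay at -0.37, -0.88 and 0.46 from its mean on the DBAxFVB F1 arrays and at 0.81 and -0.026 on the AKRxFVB F1 arrays, and the median of the 9 B cell markers lay at -0.65, -0.62 and 0.0080 in DBAxFVB F1 and at 1.32 and -0.060 in AKRxFVB F1. The root mean square difference was 0.35, the smallest of the marker lists for this probe set. From the B cell list, 1435476_a_at lay at 0.75 and 1455332_x_at at 0.74. For both, only the platelet list was farther. Their own profiles had root mean squares of 0.37 and 0.15, against 0.60 for 1435477_s_at. The distance grows with the swing of a list, so for these flatter probe sets it does not show an unlike shape. Of the 9 markers 8 were lower in DBAxFVB F1, with 0 called and 4 at an unadjusted p below 0.05, against 6.79% of all probe sets. Their median difference was -1.05, and leaving out AKRxFVB F1 array 1 or 2 gave -0.36 or -1.74. Their summed linear signal was 134 to 240 in DBAxFVB F1 and 283 to 626 in AKRxFVB F1. Ms4a1, which encodes CD20, read 5.29, 5.16 and 6.19 in DBAxFVB F1 and 8.03 and 6.97 in AKRxFVB F1. Cd79a, a chain of the B cell receptor, read 3.37, 3.88 and 4.56 in DBAxFVB F1 and 5.07 and 4.08 in AKRxFVB F1, which overlap. The part of B cell number in the Fcgr2b values was not tested.

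Fcgr3 and the brightest Fcgr2b probe set, both highest on DBAxFVB F1 array 3, were set beside the myeloid markers. The monocyte list, 13 tested members with 8 higher in DBAxFVB F1, had median deviations of -0.096, 0.0069 and 0.085 in DBAxFVB F1 and -0.057 and -0.077 in AKRxFVB F1. Its summed linear signal was 641 to 894 in DBAxFVB F1 and 880 to 887 in AKRxFVB F1. The neutrophil list, 10 tested members with 7 higher, had median deviations of -0.085, -0.023 and 0.22 in DBAxFVB F1 and 0.19 and -0.16 in AKRxFVB F1, and summed signals of 267 to 441 and 298 to 470. Neither list had a called member. The marker list nearest to both probe sets was that of tissue macrophages, 5 tested members, at a root mean square difference of 0.27 from Fcgr3 and 0.26 from Fcgr2b 1435476_a_at, followed by the dendritic cell list, 4 tested members, at 0.35 and 0.28. From Fcgr3 the neutrophil list lay at 0.35 and the monocyte list at 0.41. The tissue macrophage median deviated by -0.20, 0.030 and 0.46 in DBAxFVB F1 and by -0.17 and -0.16 in AKRxFVB F1, so it was highest on DBAxFVB F1 array 3, and the summed linear signal of the 7 markers was 42.5 to 55.5 in DBAxFVB F1 and 39.8 to 39.9 in AKRxFVB F1. Its median level was 2.65, close to the filter, and its part in the receptor values was not tested. Single monocyte markers had wider ranges than the list and did not move one way on array 3: Csf1r, the receptor for the monocyte growth factor, read 4.66, 4.65 and 6.18 in DBAxFVB F1 and 5.86 and 5.56 in AKRxFVB F1. Cd14, the lipopolysaccharide co-receptor, read 3.66, 4.17 and 5.14 in DBAxFVB F1 and 3.99 and 3.27 in AKRxFVB F1, with its highest value on the same array as Fcgr3. F13a1, a coagulation factor chain made by monocytes and platelets, read 6.99, 6.82 and 5.28 in DBAxFVB F1 and 6.21 and 7.38 in AKRxFVB F1, lowest on array 3, and was singled out after its values were seen. Cx3cr1, the fractalkine receptor, read 2.70, 2.68 and 2.65 in DBAxFVB F1 and 2.53 and 2.55 in AKRxFVB F1. In the neutrophil list the calcium-binding protein gene S100a8 read 6.35, 6.23 and 7.01 in DBAxFVB F1 and 7.43 and 6.43 in AKRxFVB F1, and Csf3r, the receptor for the neutrophil growth factor, read 3.78, 3.43 and 3.64 in DBAxFVB F1 and 3.18 and 3.21 in AKRxFVB F1. Of the 10 natural killer markers with a probe set, 4 were tested, and Ncr1, a defining receptor of these cells, lay below the filter.

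**Figure D3:**
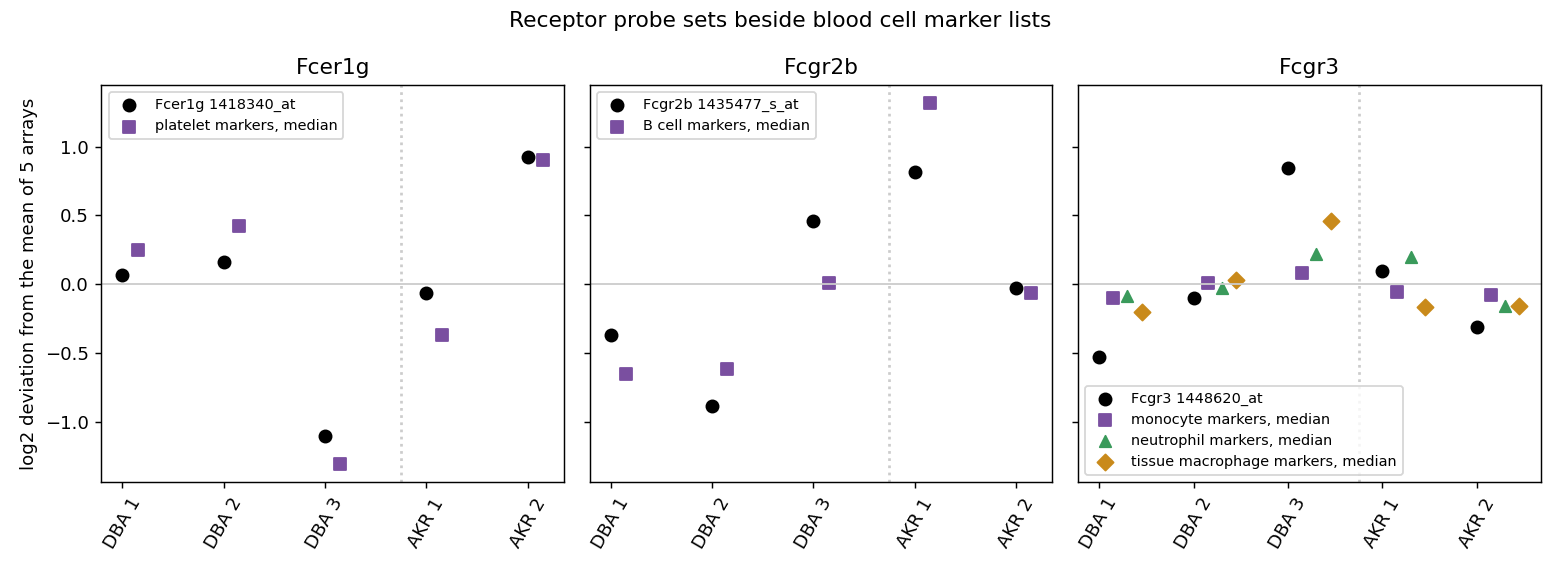
Deviation of a receptor probe set (black circles) and of the median of a marker list (coloured symbols) from its own mean over the 5 arrays, on the log2 scale, with DBAxFVB F1 (DBA) arrays left and AKRxFVB F1 (AKR) arrays right of the dotted line. Fcer1g and the platelet markers are both lowest on DBAxFVB F1 array 3 (-1.10 and -1.31) and highest on AKRxFVB F1 array 2 (0.93 and 0.91), while on DBAxFVB F1 array 3, where Fcgr3 reaches 0.84, the tissue macrophage median is at 0.46, the neutrophil median at 0.22 and the monocyte median at 0.085.

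The balance of inhibitory and activating receptor signals was followed as the Fcgr2b level, the mean of its 3 tested probe sets, minus that of an activating chain on the same array. Only the change of this quantity between arrays can be read, since levels of different probe sets are not comparable. Fcgr2b minus Fcgr3 was 0.0011, -0.57 and -0.75 in DBAxFVB F1 and -0.18 and 0.0071 in AKRxFVB F1. The difference between the crosses was -0.35, with p = 0.3 in an exact two-sided permutation test over the 10 splits of 5 arrays, for which the smallest p possible is 0.1. Fcgr2b minus Fcgr4 was -0.17, -0.31 and 0.34 in DBAxFVB F1 and 0.44 and -0.15 in AKRxFVB F1, a difference of -0.19 (exact permutation p = 0.5) that was 0.10 without AKRxFVB F1 array 1. Fcer1g minus Fcgr3 was 2.25, 1.91 and -0.29 in DBAxFVB F1 and 1.49 and 2.88 in AKRxFVB F1, a difference of -0.90 (exact permutation p = 0.6). On DBAxFVB F1 array 3 the gamma chain was thus low and Fcgr3 high in the same library. Without that array the last difference was -0.10, that of Fcgr2b minus Fcgr3 was -0.20 and that of Fcgr2b minus Fcgr4 was -0.39. Adjusted over these 3 comparisons by the Benjamini-Hochberg method, each exact permutation p was 0.6. The Fcgr2b mean joins probe sets that differed between the crosses by 0.087 (1435476_a_at), 0.038 (1455332_x_at) and -0.66 (1435477_s_at). Fcgr3 and Fcgr4 differed by 0.18 and 0.013. The sign of the Fcgr2b minus Fcgr4 difference thus rested on 1435477_s_at.

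The genes whose profile over the 5 arrays was nearest to each receptor were taken from 12420 other genes by the smallest root mean square difference of centred values. For Fcer1g they were Piga, an enzyme of membrane anchor synthesis, at 0.045, the transcriptional repressor gene Dr1 at 0.055 and Ogfrl1 at 0.080, against a root mean square of 0.65 for the Fcer1g profile itself. For Fcgr3 they were Vps53, a subunit of a vesicle tethering complex, at 0.081, the transcription factor gene Cebpb at 0.088 and the zinc finger gene Zfp12 at 0.096, against 0.47. For Fcgr2b (1435476_a_at) they were Kansl2, Ttll8 and Ndufb7, at 0.066 to 0.075, against 0.37. For Fcgr4 they were Ppp3cb, Exoc1 and Chd4, at 0.013 to 0.021, but its own profile had a root mean square of 0.12, and 7049 genes lay within 0.25 of it. Among the receptors themselves, Fcgr3 ranked 12209th of the 12420 by nearness to Fcer1g, at 1.07. Fcgr2b (1435476_a_at) ranked 887th by nearness to Fcgr3, at 0.32, and Fcgr3 ranked 2588th by nearness to that Fcgr2b probe set. With 5 arrays that share libraries, this likeness describes the arrays and was not tested.

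Partners of the gamma chain and other Fc receptors were also without a called gene. Of 11 receptor adaptors and gamma chain partners 6 were tested, with 2 lower in DBAxFVB F1 and a median difference of 0.057. Tyrobp, the other ITAM adaptor of myeloid cells, read 3.36, 3.15 and 4.73 in DBAxFVB F1 and 4.34 and 4.004 in AKRxFVB F1, highest on DBAxFVB F1 array 3 as Fcgr3 was, and differed by -0.43 ± 0.44 (SE), or -0.92 without that array. Hcst, the adaptor of the natural killer receptor NKG2D, differed by -0.40 ± 0.30, or -0.19 without DBAxFVB F1 array 3. Gp6, the platelet collagen receptor that needs the gamma chain, read 3.40, 3.68 and 4.13 in DBAxFVB F1 and 2.94 and 3.46 in AKRxFVB F1, a difference of 0.54 ± 0.26 (limma adjusted p = 0.533), and it was highest on the array where Fcer1g was lowest, without which the difference was 0.34. Of 13 other Fc receptors 7 were tested, with 4 lower and a median of -0.083. Fcmr, the IgM receptor of B cells, differed by -0.41 ± 0.34, Fcrla, a B cell protein of the Fc receptor family, by -0.27 ± 0.18, and Fcgrt, the neonatal Fc receptor that recycles IgG, by 0.12 ± 0.17. Without DBAxFVB F1 array 3 Fcmr differed by -0.68 and Fcgrt by 0.024. Fcer1a and Ms4a2, the chains of the immunoglobulin E receptor, lay below the filter, with means of 2.16 and 2.42 in DBAxFVB F1 and 2.03 and 2.45 in AKRxFVB F1.

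Signalling genes below the receptors did not pass either. Of 27 activating kinases and adaptors 21 were tested, with 11 lower and a median of -0.0040. Syk, the kinase that binds phosphorylated ITAMs, read 3.90, 3.90 and 4.87 in DBAxFVB F1 and 5.46 and 4.59 in AKRxFVB F1, a difference of -0.80 ± 0.39 (SE; limma adjusted p = 0.527). Only DBAxFVB F1 array 3 lay above an AKRxFVB F1 value. Pik3ca, a catalytic subunit of phosphoinositide 3-kinase, differed by -0.58 ± 0.20 and Btk, a kinase of B cells and myeloid cells, by -0.66 ± 0.27 (limma adjusted p-values 0.398 and 0.444), and in both the crosses did not overlap, as in 12.6% of all probe sets in that direction. The Src-family kinase gene Fgr differed by 0.056 ± 0.28, or -0.15 without DBAxFVB F1 array 3. Of 12 inhibitory genes 11 were tested, with 4 lower and a median of 0.13. Inpp5d, the phosphatase SHIP1 that Fcgr2b recruits, read 4.45, 4.62 and 5.29 in DBAxFVB F1 and 4.09 and 4.81 in AKRxFVB F1, a difference of 0.33 ± 0.34, and Ptpn6, the phosphatase SHP-1, differed by -0.093 ± 0.25. Ptpn11, the phosphatase SHP-2, had the smallest p of this list, with -0.65 ± 0.30 (limma adjusted p = 0.516), and Dok3, an inhibitory adaptor, differed by 0.28 ± 0.23. Without DBAxFVB F1 array 3 the difference was 0.083 for Inpp5d, -0.031 for Ptpn6 and -0.35 for Ptpn11, and without AKRxFVB F1 array 1 that of Inpp5d was -0.031.

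**Figure D4:**
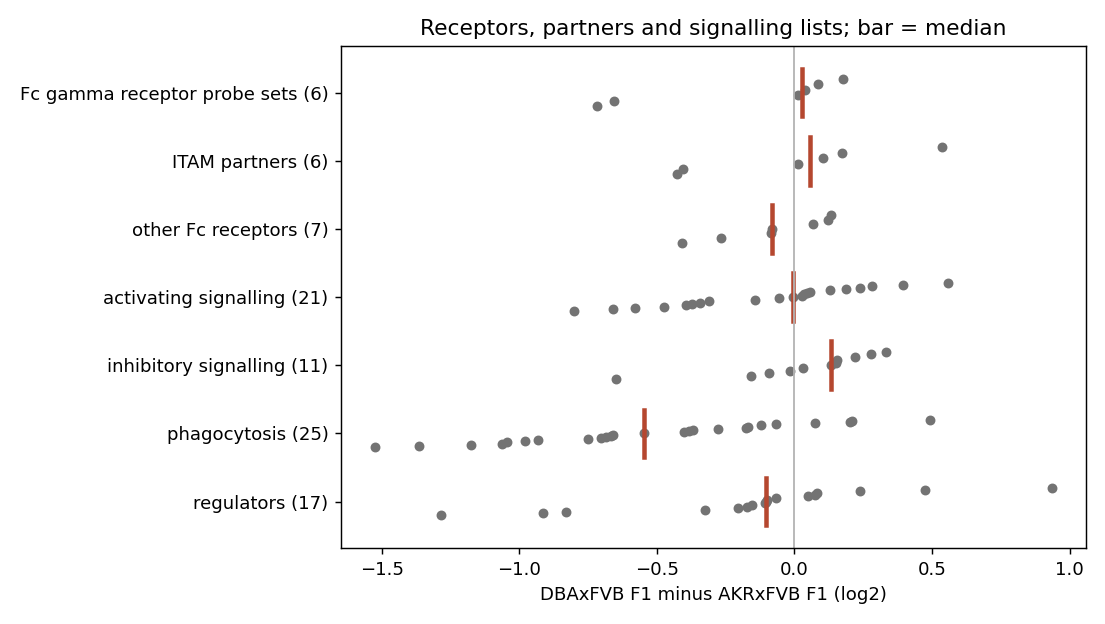
Difference between the crosses (DBAxFVB F1 minus AKRxFVB F1, log2) for the 6 tested Fc gamma receptor probe sets and the tested members of 6 lists around them, 1 point per probe set or gene and a bar at each median, with the number of points in brackets. The phagocytosis list has the lowest median, -0.55, and those of the receptors and of activating signalling lie at 0.026 and -0.0040.

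Genes of actin remodelling and the oxidase, which carry out phagocytosis, were mostly lower in DBAxFVB F1. Of 30 such genes 25 were tested, 21 were lower, 5 of them at an unadjusted p below 0.05 (6.79% of all probe sets were lower at that p), and the median was -0.55, with 0 called. Actr3, a subunit of the Arp2/3 complex that nucleates actin, read 6.09, 5.81 and 6.26 in DBAxFVB F1 and 7.87 and 7.29 in AKRxFVB F1, a difference of -1.53 ± 0.33 (SE; limma adjusted p = 0.187). Arpc2, of the same complex, differed by -1.18 ± 0.37 and Rac2, the GTPase of blood cells, by -1.06 ± 0.35 (limma adjusted p-values 0.342 and 0.374). In all 3, which were named for their small p-values, the crosses did not overlap, as in 12.6% of all probe sets in that direction. The median level of the list was 4.99, and all probe sets with a mean of 4 to 5 had a median difference of 0.031 and those with a mean of 5 to 6 one of -0.12. For a mean of 6 to 8 it was -0.44, which became -0.092 without DBAxFVB F1 array 3. Quantile normalization gave a list median of -0.29, and leaving out DBAxFVB F1 array 3 or AKRxFVB F1 array 1 gave -0.27 or -0.35. The part of brightness in this list was not tested.

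Regulators of Fc receptor levels in myeloid cells, 17 tested of 19, had 11 lower members and a median of -0.10, with 0 called. Tgfbr2, the type II receptor for TGF-beta, read 4.47, 4.13 and 4.88 in DBAxFVB F1 and 6.10 and 5.46 in AKRxFVB F1, a difference of -1.29 ± 0.32 (SE; limma adjusted p = 0.237). Jak2, a kinase of the interferon gamma receptor, differed by -0.83 ± 0.23 and Runx1, a transcription factor of blood cells, by 0.93 ± 0.32 (limma adjusted p-values 0.267 and 0.382). Spi1, the gene of PU.1, read 3.46, 3.56 and 3.58 in DBAxFVB F1 and 3.63 and 2.97 in AKRxFVB F1, with AKRxFVB F1 array 1 highest and array 2 lowest, a difference of 0.24 ± 0.22. Irf8, a transcription factor of monocytes and B cells, differed by -0.21 ± 0.17. Among the 47 protein-coding genes within 10 of a receptor gene along the chromosome, 24 were tested, 10 were lower, 0 were called and the median was 0.032. The smallest p-values among them belonged to Txnip, near Fcgr1, Cfap126, next to Fcgr3, and Rbm8a, near Fcgr1. In that order they differed by -0.99 ± 0.28, 0.49 ± 0.20 and -0.89 ± 0.41 (limma adjusted p-values 0.286, 0.449 and 0.512). Cfap126 differed by 0.31 without DBAxFVB F1 array 3, and Rbm8a by -0.076 without AKRxFVB F1 array 1.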

How the data were processed

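The values deposited by the authors, 1 for each probe set on each array, were taken as log2 expression from their range, 1.29 to 14.8, since no label or header states the scale. MAS5 and RMA are named without versions in the submitters' processing notes, with no word on their roles, so background correction and a limit of detection are unknown. Of 45101 probe sets, 64 array controls were left out of the tests. Symbols came from the platform annotation, which gave 1 symbol to 34958 probe sets.

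Samples were grouped by the cross in their source label. Probe sets with a mean at or above the median, 2.51, entered a limma fit (version 3.58.1, R 4.3.3; cross as the only term, variance trend, 3 residual degrees of freedom), with Benjamini-Hochberg adjustment over all 22519. The fit was tested on simulated data. Errors after a difference are moderated standard errors. Members and lists were chosen with earlier results of these data known. Each list gene was represented by its brightest tested probe set, and the 3 smallest p-values of each pathway list were named, with 14 genes fixed by role, 3 of which had no probe set with 1 symbol and are not analysed here. Comparison with marker profiles, and medians by level without DBAxFVB F1 array 3, were added after values were seen. Alternatives were other normalizations, filters, variance models, the replicate number as a block, array weights, other probe set choices, and each array left out. A planned pseudocount for linear values did not apply. Python 3.11.15 with pandas 2.3.3 and matplotlib 3.10.9 prepared tables and plots.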

Additional observations from a re-analysis of the deposited data

How the results depend on the processing

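The counts of called probe sets, 0 over the table and 0 among the Fc gamma receptors, were 0 in limma under all 13 alternatives, and 1271 to 2700 probe sets had an unadjusted p below 0.05 under those that kept the filter. The median difference of the receptor probe sets was -0.22 with the replicate block, and ranged from -0.22 to 0.092 with 1 array left out. With the replicate block 1435477_s_at of Fcgr2b was at -1.02 (limma adjusted p = 0.0832). Its unadjusted limma p was 0.00076 with the block, 0.031 with array weights and 0.0091 without DBAxFVB F1 array 3. It was the only receptor probe set with an unadjusted p below 0.05 in these settings. The numbers do not pair the arrays by the labels, and same-numbered arrays had deviations correlated at -0.26 and 0.17. The 2 AKRxFVB F1 arrays mirror each other around their mean, which forces opposite signs, so these correlations cannot decide on pairing. Replicate number 3 occurs only in DBAxFVB F1, so the block gives the same differences as leaving out DBAxFVB F1 array 3. The block changed no call. The sign was opposite to that reported, with no call in either setting, for these small differences. Fcgr3 was at -0.035 with array weights and -0.21 with the replicate block, and ranged from -0.21 to 0.48 with 1 array left out. Fcgr4 was at -0.024 after quantile normalization, -0.030 after median centring, -0.052 after cyclic loess normalization, -0.0077 with array weights and -0.023 with the replicate block, and ranged from -0.17 to 0.19 with 1 array left out. Fcgr2b 1435476_a_at was at -0.11 with array weights and -0.23 with the replicate block, and ranged from -0.23 to 0.34 with 1 array left out. Fcgr2b 1455332_x_at was at -0.0059, -0.0048 and -0.028 after quantile, median and cyclic loess adjustment in that order, and ranged from -0.071 to 0.16 with 1 array left out. Fcgr2b minus Fcgr4 ranged from -0.48 to 0.10 with 1 array left out, and Fcgr2b minus Fcgr3 from -0.57 to -0.20. Among 25 list genes, with 1 array left out, the sign turned for 3: Fgr ranged from -0.19 to 0.30, Inpp5d from -0.031 to 0.70 and Spi1 from -0.091 to 0.56. Fcer1g and 1435477_s_at stayed below 0 under all alternatives. The cause of the changes was not tested. Of 200 list medians under alternatives, 24 moved by more than the spread between arrays. The unstated limit of detection leaves the 4 probe sets below the filter without an interpretable difference.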
